A study of Sus scrofa with 55 samples.

Results

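The genes described here encode the enzymes of glycolysis, the non-oxidative and late oxidative pentose phosphate pathway, lactate dehydrogenase, and pyruvate dehydrogenase with its kinases. A list of 33 genes was matched by pig Ensembl symbol to the deposited count table, and 29 of the 33 had a row among its 25880 genes. The glucose transporters SLC2A1 and SLC2A3, the epimerase RPE and the phosphoglucomutase PGM1 had no row under their symbol and were not analysed here. The 29 measured members fall into 20 steps, some of them served by several isozymes.

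The study measured the cytoplasmic RNA of single wild-type (WT) pig oocytes with Smart-seq2, a full-length cDNA protocol, after the genomic DNA had been spun off. Pubertal gilts of Landrace and Yorkshire breeding, aged 208 to 210 days, were all given PMSG (5 IU), a gonadotropin from mare serum that promotes follicle growth, and their ovaries were taken 48 h later. The 55 oocytes analysed here came from 5 antral follicle stages: 11 from stage 1, 12 from stage 2, 11 from stage 3, 11 from stage 4 and 10 from stage 5. They came from 4 gilts, of which gilt 201 gave 14 oocytes, gilt 205 gave 9, gilt 801 gave 12 with none at stage 5, and gilt 803 gave 20. No untreated gilts were included, so every value refers to hormone-stimulated ovaries, and the labels give no follicle sizes for the stages.

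Glycolysis splits glucose into pyruvate, the pentose phosphate pathway draws glucose 6-phosphate off to make NADPH and ribose, and the pyruvate dehydrogenase complex turns pyruvate into acetyl-CoA for respiration. A fully grown mammalian oocyte is known to use glucose poorly by itself and to rely on pyruvate that the surrounding granulosa (cumulus) cells make by glycolysis and pass through gap junctions. Cumulus projections cross the zona pellucida to the oocyte surface, so libraries low in granulosa RNA are described separately.

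Levels are CPM, the counts of a gene relative to all gene counts of that oocyte, without regard to gene length. Total counts ran from 151104 to 38282850 per oocyte, with a median of 12139540, and 3 libraries of gilt 803 had fewer than 400000. These 3 hold, among others, the highest stage 1 values of TALDO1, PDK1, PDK3 and PDK4 given below, each on 405 counts or fewer. The same is true of PGLS and ENO2 at stage 2. The 13 protein genes encoded in mitochondrial DNA took between 2.1% and 91.8% of the counts, so levels are also given as nuclear CPM, with those 13 genes left out of the total. Granulosa-poor was defined as under 10 CPM for both INHA, the inhibin alpha subunit, and CYP11A1, the enzyme that begins steroid synthesis. The summed level of 13 granulosa markers ran from 5.93 to 181 CPM in the granulosa-poor libraries and from 36.8 to 27952 CPM in the others. Theca markers (8 genes) summed to between 0 and 86.5 CPM in the former and between 0.188 and 5416 CPM in the latter, and blood markers (7 genes) to between 0 and 335 and between 0 and 3847 CPM. ZP3, a zona pellucida protein that marks oocytes, ran from 1431.6 to 14543 CPM (median 7526) in the granulosa-poor libraries and from 2.14 to 25352 CPM (median 3093) in the others. The 14 came from gilt 201 (3), gilt 205 (2), gilt 801 (7) and gilt 803 (2), and from stages 1 (4), 2 (5), 4 (4) and 5 (1), with none from stage 3. Their median mitochondrial share was 78.1%, against 57.0% in the others.

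Transcripts for most of the route from glucose to acetyl-CoA were found in libraries with under 10 CPM of both INHA and CYP11A1. These libraries were low in granulosa RNA but not free of it: INHA reached 93.2 nuclear CPM, with 4 of the 14 at 10 nuclear CPM or more, and their summed granulosa markers overlapped those of the other libraries. A step was counted as expressed in a library where at least 1 of its members reached 1 CPM and 3 counts. On that rule 16 of the 20 steps were expressed in at least 7 of the 14 granulosa-poor libraries. Aldolase, glyceraldehyde phosphate dehydrogenase, enolase, pyruvate kinase and transketolase were expressed in 14 of 14. Phosphofructokinase and ribose phosphate isomerase were expressed in 13, glucose phosphate isomerase and the pyruvate dehydrogenase kinases in 12, and hexokinase, lactate dehydrogenase, transaldolase and the pyruvate dehydrogenase alpha subunit in 11. Phosphogluconate dehydrogenase followed with 10, phosphogluconolactonase with 9 and phosphoglycerate kinase with 8. The other 4 steps fell below the mark: phosphoglycerate mutase and the pyruvate dehydrogenase beta subunit in 5 libraries each, TIGAR in 3 and triose phosphate isomerase in 1. Single granulosa-poor libraries expressed between 8 and 19 of the 20 steps. The lowest was a stage 1 oocyte of gilt 201 with 7329800 counts and a mitochondrial share of 87.8%. The number 19 was reached by a stage 1 oocyte of gilt 801 with 10535797 counts and a share of 62.7%, and by a stage 4 oocyte of the same gilt with 38282850 counts and a share of 3.62%.

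**Figure D1:**
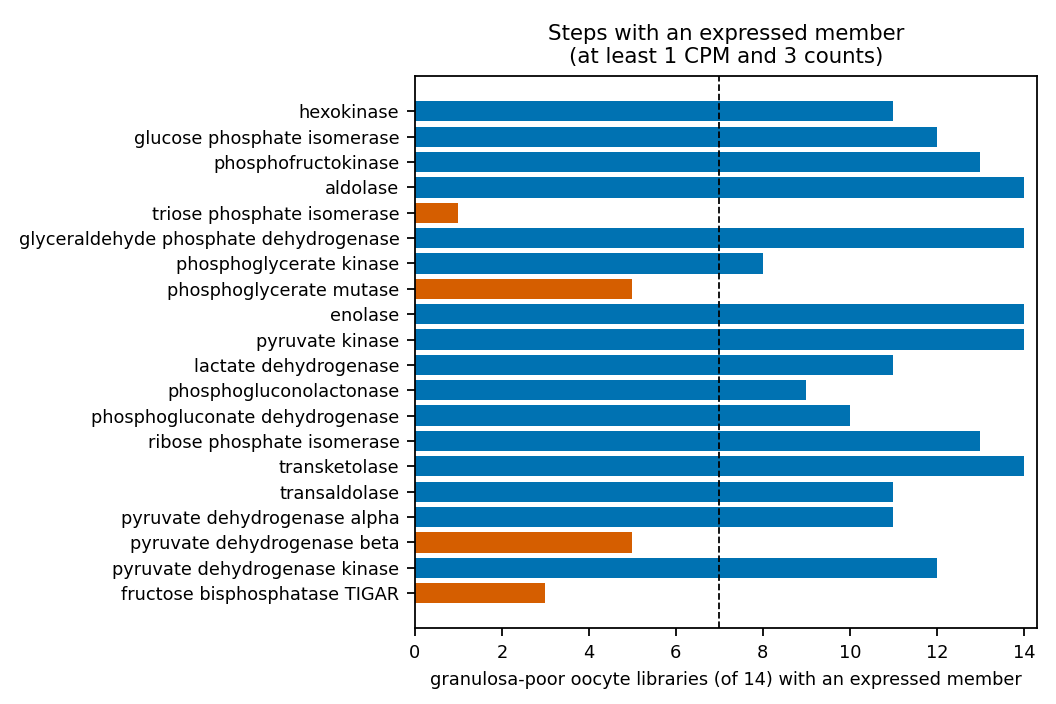
Number of the 14 granulosa-poor oocyte libraries (x axis) in which each step of the pathways (y axis) had an expressed member, meaning at least 1 CPM and 3 counts. Blue bars reach the dashed line at 7 libraries and orange bars do not: triose phosphate isomerase (1), phosphoglycerate mutase (5), the pyruvate dehydrogenase beta subunit (5) and TIGAR (3).

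The near absence of triose phosphate isomerase, the enzyme that interconverts the triose products of aldolase, held for all oocytes. TPI1 had 49 counts in the whole table and 0 in 48 of 55 oocytes, and its highest level was 1.33 CPM. A count of 0 allows up to 3 counts, which is between 0.0784 and 2.70 CPM in the granulosa-poor libraries; this limit covers counting error only. In mammals GAPDH, TPI1, PGK1, PGAM1, ENO1 and LDHA have processed copies elsewhere in the genome, and the sources used here do not say how reads shared between copies were counted. Their levels are uncertain to that extent.

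The first steps were present at low to moderate levels in every stage. Hexokinase traps glucose as glucose 6-phosphate, and HK1, the widely expressed form, had a median of 2.15 CPM (0 to 20.7) in the granulosa-poor libraries. Its median, with the lowest and highest oocyte in parentheses here and in the lists that follow, was 6.82 CPM (0 to 123) in stage 1, 2.02 (0 to 149) in stage 2, 0.801 (0 to 592) in stage 3, 7.92 (0 to 575) in stage 4, and 3.70 (0 to 124) in stage 5. All 5 stages thus overlapped, with 14 of 55 oocytes at 0 counts. HK2, the form typical of muscle and of strongly glycolytic cells, had medians between 0.202 and 1.92 CPM over the stages and reached 132 CPM, and its granulosa-poor median was 2.08 CPM (0 to 38.3). GPI turns glucose 6-phosphate into fructose 6-phosphate. Its medians were 20.4 CPM (0 to 393) in stage 1, 14.6 (0 to 147) in stage 2, 10.0 (0 to 983) in stage 3, 72.1 (3.81 to 1567) in stage 4, and 24.5 (0.184 to 1233) in stage 5. The highest median stood at stage 4, within the range of each other stage.

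Phosphofructokinase, the main control point of glycolysis, has 3 forms. PFKP, the platelet form, had a median of 9.73 CPM (0 to 421) in stage 1, 19 (0 to 633) in stage 2, 50.8 (0.627 to 413) in stage 3, 95.0 (4.70 to 813) in stage 4, and 14.8 (0.824 to 719) in stage 5. The liver form PFKL had a median of 2.91 CPM (0 to 342) in stage 1, 0.416 (0 to 42.4) in stage 2, 1.3 (0 to 245) in stage 3, 0.763 (0 to 210.4) in stage 4, and 0.0255 (0 to 10.6) in stage 5. The highest oocyte thus passed 200 CPM at stages 1, 3 and 4 and stayed at 10.6 CPM at stage 5. The muscle form PFKM had a median of 0 to 0.330 CPM in every stage, with 25 of 55 oocytes at 0 counts and a highest value of 192 CPM.

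Aldolase, which cleaves fructose bisphosphate, was present in all granulosa-poor libraries through either of its members. There ALDOC, the brain form, had a median of 19.5 CPM (0 to 612), and ALDOA, the muscle and general form, had a median of 13.9 CPM (0.273 to 1149). Both highest values came from 1 stage 2 oocyte of gilt 803 with 1109755 counts, the fewest of the 14. That library also had the highest summed granulosa (181 CPM) and blood (335 CPM) markers of the 14. It held the highest stage 2 values of PFKP, TKT and PDHA1 as well. By stage ALDOC had a median of 3.96 CPM (0 to 154) in stage 1, 4.19 (0 to 612) in stage 2, 5.83 (0 to 217) in stage 3, 16.7 (0 to 301) in stage 4, and 6.58 (0 to 85.4) in stage 5. In the other 41 libraries ALDOA reached from 3.70 to 23056 CPM with a median of 265 CPM.

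GAPDH, which makes the first NADH of the route and serves widely as a reference gene, was found in every oocyte. It had a median of 113 CPM (12.7 to 3099) in stage 1, 63.1 (10.4 to 2727) in stage 2, 67.0 (27.5 to 5363) in stage 3, 230.1 (15.2 to 6689) in stage 4, and 107 (17.5 to 13700.4) in stage 5. Over all oocytes its highest level was 1312 times its lowest in CPM and 364 times in nuclear CPM, while the granulosa-poor libraries stayed between 60.7 and 416 nuclear CPM. Plain and nuclear CPM part where the mitochondrial share is high: a stage 1 oocyte of gilt 801 with a share of 91.8% had 18.8 CPM and 229 nuclear CPM, and a stage 2 oocyte of the same gilt with a share of 4.68% had 184 CPM and 193 nuclear CPM.

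PGK1, which makes the first ATP of the route, had a median of 5.81 CPM (0 to 217) in stage 1, 0.713 (0 to 193) in stage 2, 3.58 (0 to 1423) in stage 3, 22.7 (0.162 to 1321) in stage 4, and 24.8 (0 to 2367) in stage 5. PGAM1, the mutase that follows, had a median of 1.32 CPM (0 to 239) in stage 1, 1.32 (0 to 266) in stage 2, 0.0627 (0 to 775) in stage 3, 10.6 (0.162 to 1113) in stage 4, and 31.1 (0 to 1012) in stage 5. In plain CPM both had medians above 10 at stages 4 and 5 alone, although single oocytes of every stage passed 190 CPM. In granulosa-poor libraries their medians were 4.05 CPM for PGK1 and 0.816 CPM for PGAM1.

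ENO1, the general enolase, and PKM, the pyruvate kinase of most tissues, both ranged widely. ENO1 had a median of 2036 CPM (29.7 to 11216) in stage 1, 94.8 (13.7 to 5558) in stage 2, 113 (0.439 to 20544) in stage 3, 911 (8.67 to 20923) in stage 4, and 245 (32.4 to 27129) in stage 5. PKM had a median of 667 CPM (2.59 to 4606) in stage 1, 15.0 (1.44 to 4989.9) in stage 2, 45.4 (0.366 to 10743) in stage 3, 76.2 (8.99 to 6121) in stage 4, and 244 (10.9 to 8616) in stage 5. In CPM each had its highest stage median at stage 1 and its lowest at stage 2. In nuclear CPM the ENO1 medians were 3235, 252, 435, 3321 and 1169 over the 5 stages, so stages 1 and 4 stood level, and the ranges of the 5 stages overlapped almost whole. ENO2, the neuronal enolase, was at 0 counts in 34 of 55 oocytes and exceeded 100 CPM in a single stage 2 oocyte of 589 CPM, the highest value of that stage.

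Lactate dehydrogenase, which interconverts pyruvate and lactate, is encoded among the members by LDHA and LDHB. LDHA, the muscle form, had a median of 9.56 CPM (0 to 419) in stage 1, 10.9 (1.39 to 463) in stage 2, 33.8 (0 to 2112) in stage 3, 117 (0.810 to 2767) in stage 4, and 64.1 (0.0652 to 3043) in stage 5. LDHB, the heart form, had 820 counts in all 55 oocytes together, was at 0 in 26 and reached 12.8 CPM. RefSeq's pig gene table for Sscrofa11.1 lists 2 loci with the symbol LDHB, so its counts may be divided, and its level is uncertain.

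Among the pentose phosphate genes, ribose phosphate isomerase (RPIA) and transketolase (TKT) were found in nearly all libraries, with 0 and 2 of 55 oocytes at 0 counts. RPIA, which turns ribulose 5-phosphate into the ribose of nucleotides, had a median of 59.1 CPM (0.955 to 796) in stage 1, 26.9 (6.85 to 1318) in stage 2, 64.3 (2.71 to 3405) in stage 3, 286 (6.0 to 1693) in stage 4, and 103 (5.02 to 2286) in stage 5. TKT, which moves carbon back towards glycolysis, had a median of 24.6 CPM (0 to 584) in stage 1, 27.6 (0 to 616) in stage 2, 57.6 (11.8 to 334) in stage 3, 143 (11.8 to 619.9) in stage 4, and 43.4 (7.56 to 591) in stage 5. In nuclear CPM the RPIA medians were 201, 121, 297, 296 and 306 over the 5 stages, so the high stage 4 median of RPIA was seen in plain CPM alone. TKT had its highest median at stage 4 on both scales.

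TALDO1, the transaldolase, had a median of 31.7 CPM (0 to 1840.2) in stage 1, 7.23 (0 to 260.3) in stage 2, 6.17 (0 to 393) in stage 3, 100.7 (9.56 to 366) in stage 4, and 13.7 (0.235 to 54.7) in stage 5. In the oxidative branch, PGLS, the lactonase, had a median of 10.6 CPM (0 to 106) in stage 1, 4.69 (0 to 199) in stage 2, 1.70 (0 to 229) in stage 3, 16.3 (0 to 160.2) in stage 4, and 4.22 (0 to 144) in stage 5. PGD, which makes the second NADPH, had a median of 6.77 CPM (0 to 102) in stage 1, 4.57 (0 to 168) in stage 2, 2.05 (0 to 151.04) in stage 3, 18.3 (0 to 241) in stage 4, and 2.32 (0 to 29.5) in stage 5. TALDO1, PGLS and PGD had their highest stage median at stage 4 in CPM and in nuclear CPM, and the stages overlapped for each.

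The pyruvate dehydrogenase subunits were unevenly covered. PDHA1, the catalytic alpha subunit of pyruvate dehydrogenase, had a median of 23.3 CPM (0 to 105.2) in stage 1, 12.8 (0 to 609) in stage 2, 9.60 (0 to 69.8) in stage 3, 31.2 (0.859 to 394) in stage 4, and 6.25 (0.306 to 59.3) in stage 5. PDHB, its beta subunit, had a median of 10.7 CPM (0 to 333) in stage 1, 0.0552 (0 to 91.0) in stage 2, 7.90 (0 to 112) in stage 3, 20.1 (0 to 144) in stage 4, and 0.312 (0 to 24.3) in stage 5. The beta subunit was at 0 counts in 16 oocytes, the alpha subunit in 4.

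The pyruvate dehydrogenase kinases switch the complex off by phosphorylating the alpha subunit. PDK1 had a median of 2.52 CPM (0 to 123) in stage 1, 3.86 (0 to 40.8) in stage 2, 0.50 (0 to 211) in stage 3, 9.46 (0 to 133) in stage 4, and 0.873 (0 to 24.2) in stage 5. PDK4, a form induced by fasting and glucocorticoids in other tissues, had a median of 0.546 CPM (0 to 473) in stage 1, 3.09 (0 to 400.1) in stage 2, 5.65 (0 to 2297) in stage 3, 0.131 (0 to 72.6) in stage 4, and 0.170 (0 to 1852) in stage 5. PDK4 thus had medians under 6 CPM in all stages and passed 400 CPM in single oocytes of 4 stages, all of gilt 803. Its highest granulosa-poor library, of gilt 801, had 5.57 CPM (32.4 nuclear CPM). By median nuclear CPM within gilts, PDK4 was higher in the granulosa-poor libraries in 3 of 4 gilts, at 4.48 or less. In gilt 803 the median was 0 in the granulosa-poor libraries and 93.3 in the others. PDK3 had stage medians between 1.55 and 5.05 CPM and reached 117 CPM. PDK2 was at 0 counts in 33 oocytes and reached 131 CPM. TIGAR, a bisphosphatase that slows glycolysis and favours the pentose phosphate route, was at 0 counts in 36 oocytes. It had a median of 0 CPM (0 to 77.7) in stage 1, 0 (0 to 97.6) in stage 2, 0 (0 to 14.2) in stage 3, 0.165 (0 to 97.0) in stage 4, and 0 (0 to 3.14) in stage 5.

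**Figure D2:**
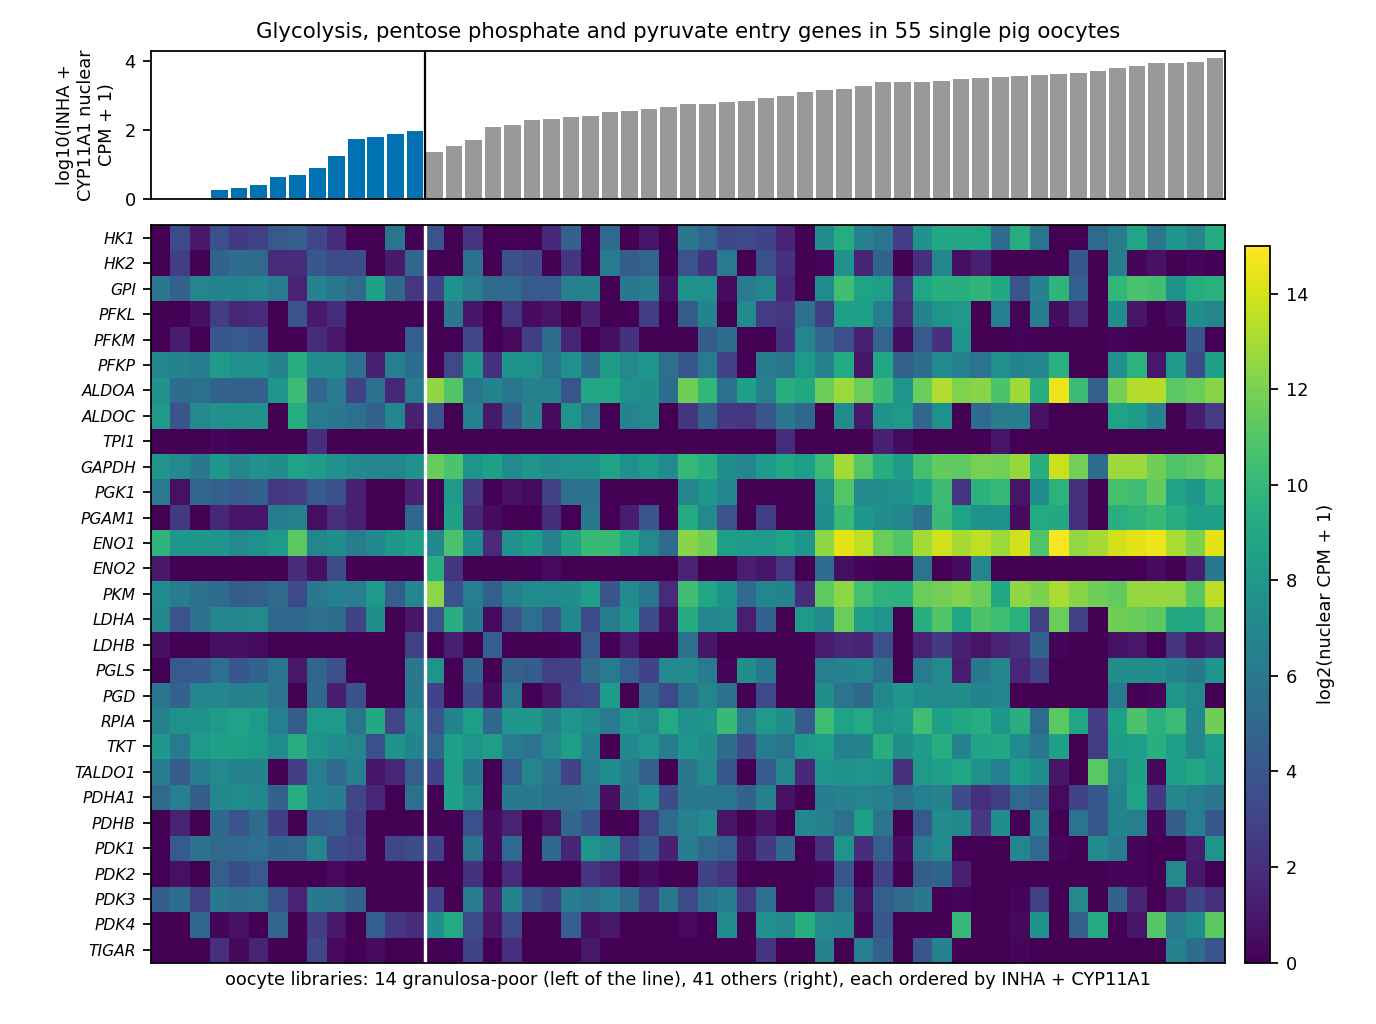
The 29 measured members (rows, in pathway order) in the 55 oocyte libraries (columns), coloured by log2(nuclear CPM + 1), with bars above for the summed nuclear CPM of INHA and CYP11A1 on a log10 scale. The 14 granulosa-poor libraries (blue bars, left of the line) show GAPDH between 60.7 and 416 nuclear CPM, and the brightest cells of ALDOA, GAPDH, ENO1 and PKM lie on the right, among the libraries with the most INHA and CYP11A1.

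To rank the members against each other, values per length were taken from the authors' length-scaled table, which holds 24 of the members and lacks GPI, TPI1, GAPDH, PKM and PGD. Each member was taken as its percentage of the sum of those 24 in the same oocyte. In the granulosa-poor libraries RPIA (median 24.7%, range 0.446% to 73.2%) and ENO1 (23.1%, 9.60% to 57.5%) stood first. RPIA ranked first in 7 of the 14, ENO1 in 6 and TALDO1 in 1, and ENO1 was among the top 3 in 14 of 14. PFKP followed with a median of 7.74% (0.0666% to 12.6%), TKT with 7.62% (0.504% to 22.6%) and ALDOC with 5.71% (0.0512% to 14.9%), so these neighbours overlapped. In the other 41 libraries ENO1 ranked first in 30 with a median of 61.3%, and RPIA in 7 with a median of 6.6%.

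The granulosa-poor and the other libraries were then compared within each gilt, as the median log2(nuclear CPM + 1) of the others minus that of the granulosa-poor libraries. This division uses measured values of 2 genes, so it is given as a description with no test. Stage was not held fixed. The granulosa-poor libraries of gilt 205 were its 2 stage 4 oocytes, and those of gilt 803 came from stages 1 and 2 alone. The part of stage in these differences was not tested. HK1, GPI, ALDOA, GAPDH, ENO1, LDHA, PGLS, PGD and TALDO1 were higher in the other libraries in all 4 gilts, which is 9 of the 23 members with at least 3 counts in most of the oocytes. Among all 8365 genes with that coverage, 10.3% were higher in the other libraries in all 4 gilts and 5.68% were higher in the granulosa-poor libraries in all 4. Of the members, PDK1 alone was higher in the granulosa-poor libraries in all 4. In CPM over all counts, PDK1 no longer was, and PGAM1 and PKM joined the 9. With granulosa-poor set at under 50 CPM, PGLS, PGD and TALDO1 left the 9, and PGAM1 and PDHB joined. Pooling the gilts, 15 of the 23 members (65.2%) had the higher median in the other libraries, against 28.2% of the 8365 genes. ENO2, LDHB, PFKM, PDK2, TPI1 and TIGAR did not reach that coverage.

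ALDOA had the largest mean difference within gilts among these 9. Its median nuclear CPM was 43.3 in the granulosa-poor libraries (2.24 to 1193) and 1152 in the others (14.2 to 23777), and the difference within gilts averaged 4.03 ± 1.35 on the log2 scale (SD, n = 4 gilts). PGLS differed by 3.30 ± 1.4, LDHA by 2.77 ± 1.54, ENO1 by 2.68 ± 1.98, TALDO1 by 2.37 ± 2.18, GPI by 2.28 ± 2.00, HK1 by 2.23 ± 0.99, GAPDH by 2.19 ± 1.55 and PGD by 1.02 ± 0.67. Pooled over gilts, the median of PGD was 42.3 nuclear CPM in the granulosa-poor libraries and 9.54 in the others, the reverse of its order within each gilt. Within gilts the medians were 0 and 0.728 in gilt 201, near the floor, and 4.46 and 10.5 in gilt 205. They were 93.6 and 117 in gilt 801 and 4.12 and 18.2 in gilt 803. The HK1 medians were also near the floor in gilt 201 (0 and 2.18) and in gilt 205 (0.965 and 3.91). PGAM1 (3.05 ± 2.86) and PKM (2.96 ± 3.37) differed by as much on average but were higher in 3 of 4 gilts.

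For other members the mean difference was smaller than the SD between gilts. PFKP differed by 0.0047 ± 1.14 on the log2 scale, TKT by 0.12 ± 0.69, PDHA1 by 0.41 ± 2.18 and RPIA by 0.98 ± 1.65. For PDK1 the difference was -0.85 ± 0.84, about the size of its SD, and ALDOC (-1.83 ± 2.18) and HK2 (-1.0 ± 1.32) were lower there in 3 of 4 gilts. Across the 55 oocytes, which share gilts and stages, the rank correlation (Spearman) of nuclear CPM with the sum of INHA and CYP11A1 was 0.77 for ENO1, 0.75 for PKM, 0.67 for ALDOA and 0.65 for GAPDH. It was -0.03 for PFKP, -0.22 for ALDOC and -0.32 for PDK3. In a library that holds granulosa RNA, transcripts of the oocyte and of the granulosa cells cannot be told apart.

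**Figure D3:**
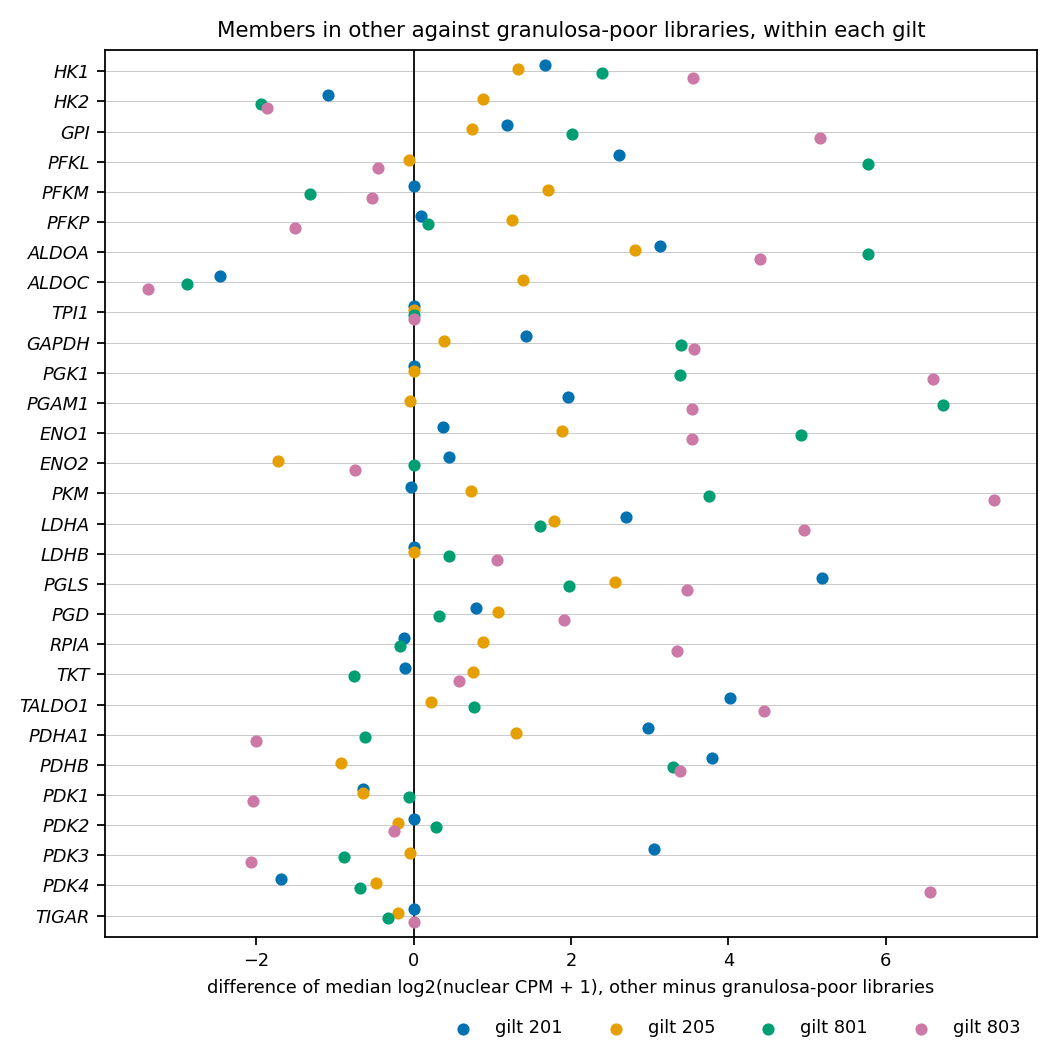
Difference between the other and the granulosa-poor libraries (x axis, median log2(nuclear CPM + 1) of the others minus that of the granulosa-poor) for each measured member (y axis), with 1 point per gilt. Points right of the vertical line are higher in the other libraries; ALDOA lies right of it in all 4 gilts (mean 4.03) and PDK1 left of it in all 4 (mean -0.85).

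Where a step has several isozymes, their shares of the counts are given for both kinds of library, again with no test. Shares of counts do not account for the lengths of the isozymes, so they serve to set libraries side by side. Summed over the granulosa-poor libraries of a gilt, ALDOA made 57.6% of the aldolase counts in gilt 201, 47.5% in gilt 205, 14.6% in gilt 801 and 65.6% in gilt 803. In the other libraries of the same gilts it made 99.0%, 76.1%, 94.0% and 98.9%. In gilt 205, 1 stage 1 oocyte held 19842 of the 25107 aldolase counts of the other libraries. By the median of single libraries of that gilt, ALDOA made 32.9% in the granulosa-poor libraries and 47.3% in the others. ALDOC made over 50% of the aldolase counts in 8 of 14 granulosa-poor libraries and in 4 of 40 others that had at least 10 aldolase counts. Most of the 8 were of gilt 801, and the 4 were all of gilt 205. Within gilts 201, 205, 801 and 803 the median ALDOC share of single granulosa-poor libraries was 34.0%, 67.1%, 74.4% and 30.7%. In the others it was 0.958%, 52.7%, 2.46% and 0.705%. Per length, with the gilts pooled, the median ALDOC share was 70.2% in the granulosa-poor and 2.69% in the other libraries.

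PFKP made 82.9%, 97.8%, 93.2% and 98.2% of the phosphofructokinase counts in the granulosa-poor libraries of gilts 201, 205, 801 and 803. In the other libraries it made 44.4%, 86.2%, 37.5% and 76.6%. In gilt 205, 1 stage 1 oocyte held 9343 of the 13318 phosphofructokinase counts of the other libraries. The medians of single libraries of that gilt were 98.8% in the granulosa-poor libraries and 96.7% in the others. Per length, PFKP made at least 84.5% in each of the 14 granulosa-poor libraries and over 50% in 27 of 39 others. HK1 made 54.3%, 16.4%, 20.6% and 76.0% of the hexokinase counts in granulosa-poor libraries and 91.7%, 55.7%, 63.1% and 92.0% in the others. That order did not hold in gilt 205 by the median of single libraries, which was 11% in the granulosa-poor and 8.0% in the others. The hexokinase counts behind the granulosa-poor shares were few in 3 gilts: 92 in gilt 201, 55 in gilt 205 and 50 in gilt 803, against 3703 in gilt 801. In gilt 201 all 50 HK1 counts came from 1 stage 1 oocyte. ENO1 made at least 94.5% of the enolase counts in each granulosa-poor library, and LDHA over 50% of the summed counts of LDHA and LDHB in 12 of 13. LDHC, which is no member, is not in that sum; its granulosa-poor median was 64.3 nuclear CPM.

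In granulosa-poor libraries the median share of the kinase counts was 41.1% for PDK3, 37.0% for PDK1, 1.06% for PDK4 and 0% for PDK2. In the others it was 18.7% for PDK3, 14.27% for PDK1, 17.9% for PDK4 and 0% for PDK2. These medians pool the gilts. Within gilts 201, 205, 801 and 803 the median PDK1 share was 63.64%, 21.16%, 37.29% and 61.77% in the granulosa-poor libraries. The others had 14.25%, 14.29%, 66.04% and 7.69%. By summed counts the PDK1 share was lower in the granulosa-poor libraries of gilts 205 and 801. For PDK4 the medians were 36.36%, 0.743%, 0.628% and 0%, against 79.61%, 0%, 0.243% and 47.39% in the others. The order thus differed between gilts for both. The authors' length-scaled table gave another order in the granulosa-poor libraries, with medians of 29.2% for PDK2, 16.3% for PDK1, 4.72% for PDK3 and 2.1% for PDK4. There, 14 oocytes with 0 counts of PDK2 were listed above 0. The order of the kinases therefore depends on the table.

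**Figure D4:**
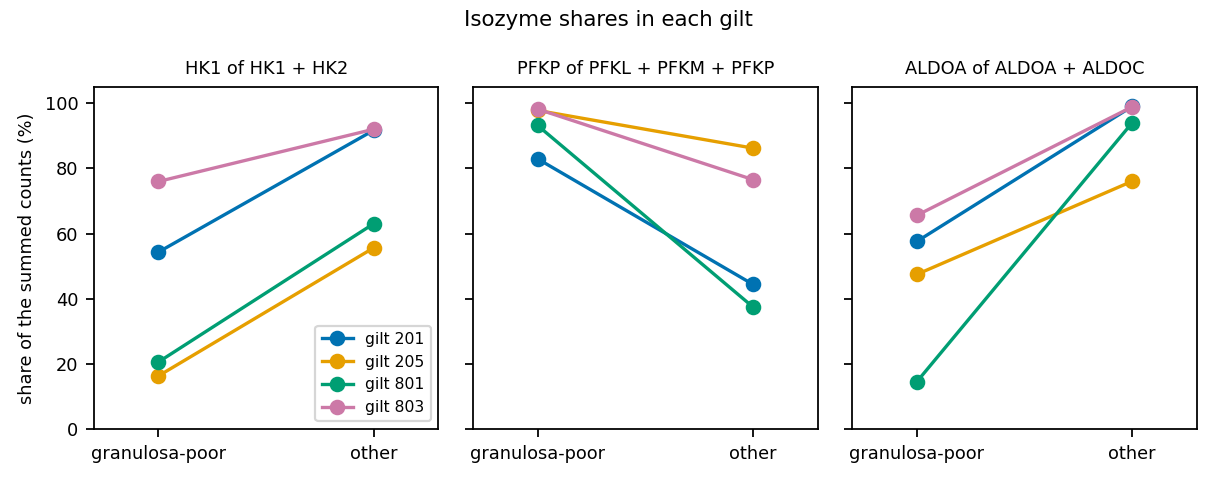
Share of the summed counts of its isozyme family (y axis, percent) taken by HK1, PFKP and ALDOA in the granulosa-poor and in the other libraries of each gilt (x axis), with 1 line per gilt. PFKP lies between 82.9% and 98.2% in the granulosa-poor libraries and between 37.5% and 86.2% in the others, and ALDOA between 14.6% and 65.6% and between 76.1% and 99.0%. In gilt 205, 1 stage 1 oocyte held most of the counts behind the shares of the other libraries.

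The study's design asks whether these genes change as the follicle grows. For each gilt and stage the counts of its oocytes were added up and tested in edgeR's quasi-likelihood model with stage and gilt, with p-values adjusted over 15637 genes. None of the 28 members that passed the filter on low counts (all measured members but TPI1) passed an adjusted p of 0.05 in the F test among stages, where 0% of all genes passed. In the comparison of stage 5 with stage 1, 0 of 28 members and 0% of all genes passed, and in the trend over stages 0 of 28 members and 0.0128% of all genes passed. DESeq2 also called 0 of 28 in each, where it called 0.301%, 2.33% and 1.03% of all genes. Without the filter on low counts, 7 of 29 members passed in the F test (PFKL, ALDOA, PGK1, ENO1, PKM, LDHA and PDK4), with 216 of 23035 genes. With the filter, the common biological coefficient of variation of the sums, after stage and gilt were fitted, was 1.24. The smallest adjusted p of a member by edgeR was then 0.820 in the F test, 0.927 in the comparison of stage 5 with stage 1 and 0.811 in the trend.

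At an unadjusted p under 0.05, 8 of 28 members stood out in the F test among stages, where 5.37% of all genes did. They were PDK4 (p = 0.00651), ENO1 (p = 0.00892), LDHA (p = 0.0118), PKM (p = 0.0162), PFKL (p = 0.0167), PGK1 (p = 0.0208), TIGAR (p = 0.0226) and HK1 (p = 0.04999), all by edgeR and all with adjusted p of 0.820 or more. Without gilt 801 there was 1 such member (3.97% of all genes), without gilt 803 there were 11 (9.47% of all genes), and without the gilt term 2 (7.6% of all genes). ENO1, LDHA, PKM and PGK1 shared a pattern in their means over gilts. The mean of the sums, scaled by TMM factors, was lowest at stage 2 and highest at stage 3. For ENO1 it was 1377 ± 517 CPM (SD, n = 4 gilts) in stage 1, 421 ± 720 in stage 2, 3484 ± 4077 in stage 3, 1538 ± 2678 in stage 4 and 2725 ± 3414 (n = 3) in stage 5. For LDHA the means were 91.5, 34.6, 509, 155 and 296 CPM, and for PKM 433, 181, 1239, 533 and 934 CPM. The SD exceeded the mean for ENO1 at stages 2 to 5. By gilt, the scaled ENO1 sum was highest at stage 3 in gilt 801 (4827 CPM, from 1 oocyte) and gilt 803 (8658 CPM). In gilt 201 it was 1189 CPM at stage 1 and 93.8 at stage 3, and in gilt 205 it was 739 and 355.

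INHA was also lowest at stage 2 and highest at stage 3, with means of 847, 126, 1951, 879.6 and 546 in plain CPM over the 5 stages. Its unadjusted p was 0.00586 in the same edgeR F test (adjusted p = 0.820). This pair of stages was chosen after its values were seen. Between stages 1 and 2, ENO1 in nuclear CPM went from 2929.6 to 155 in gilt 201, from 3235 to 135 in gilt 205, from 6557 to 245 in gilt 801 and from 5024 to 4629.7 in gilt 803. Over the same stages INHA in nuclear CPM went from 5369 to 234 in gilt 201, from 1825 to 287 in gilt 205, from 957 to 12.5 in gilt 801 and from 742 to 454 in gilt 803. Both were thus lower at stage 2 in 4 of 4 gilts on this scale, and both differed least in gilt 803. CYP11A1, the other gene of the granulosa-poor definition, had stage means of 273, 144, 403, 440 and 370 CPM, highest at stage 4. Its unadjusted p was 0.573 in the edgeR F test. From stage 1 to stage 2 its plain CPM went from 213 to 18.3 in gilt 201 and from 444 to 14.4 in gilt 205. It went from 0.146 to 3.41 in gilt 801 and from 435 to 538 in gilt 803. The part of granulosa RNA in these stage values was not tested. In the granulosa-poor libraries alone, which leave 2 residual degrees of freedom and no stage 3, 0 of 27 members and 0.347% of all genes had an unadjusted p under 0.05 in the F test, so that fit says little about the members.

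PDK4 was spread widely between gilts. Its mean sum was 13.4 ± 19 CPM in stage 1, 23.0 ± 28.2 in stage 2, 222 ± 365 in stage 3, 1.97 ± 3.63 in stage 4 and 91.3 ± 137 in stage 5, with a lowest gilt of 0 and a highest of 762 CPM at stage 3. PFKL and TIGAR were the members with an unadjusted p under 0.05 in the trend, where 5.76% of all genes had one. The log2 slope per stage was -0.88 ± 0.37 for PFKL (SE; edgeR p = 0.0237, adjusted p = 0.811) and -1.10 ± 0.48 for TIGAR (p = 0.0281, adjusted p = 0.815). Their stage means were 38.3, 1.97, 35.7, 6.77 and 4.93 CPM for PFKL and 8.31, 6.13, 1.09, 5.30 and 0.330 CPM for TIGAR, so neither was ordered by stage. The oocyte genes GDF9 and ZP3 had unadjusted p of 0.0479 and 0.0463 in the same trend test by edgeR, with log2 slopes of -0.42 and -0.53 per stage; their part in the result was not tested.

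Between stage 5 and stage 1 no member had an unadjusted p under 0.05, against 5.37% of all genes, and 8 of 28 members were higher and 20 lower in the fit, with a median log2 change of -0.51. The median over all genes was -0.27. Left without the gilt term, the same comparison gave 18 higher and 10 lower, with a median of 0.30, and without gilt 205 there were 16 and 12, so the direction of the list as a whole is not settled by these data. HK2 had the most positive log2 change (3.17 ± 1.67 SE, edgeR p = 0.0692, adjusted p = 0.927) and TIGAR the most negative (-4.09 ± 2.46 SE, p = 0.109, adjusted p = 0.933). The log2 change was -0.10 ± 0.91 for GAPDH, 0.55 ± 0.66 for RPIA and -0.04 ± 0.71 for TKT (SE).

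**Figure D5:**
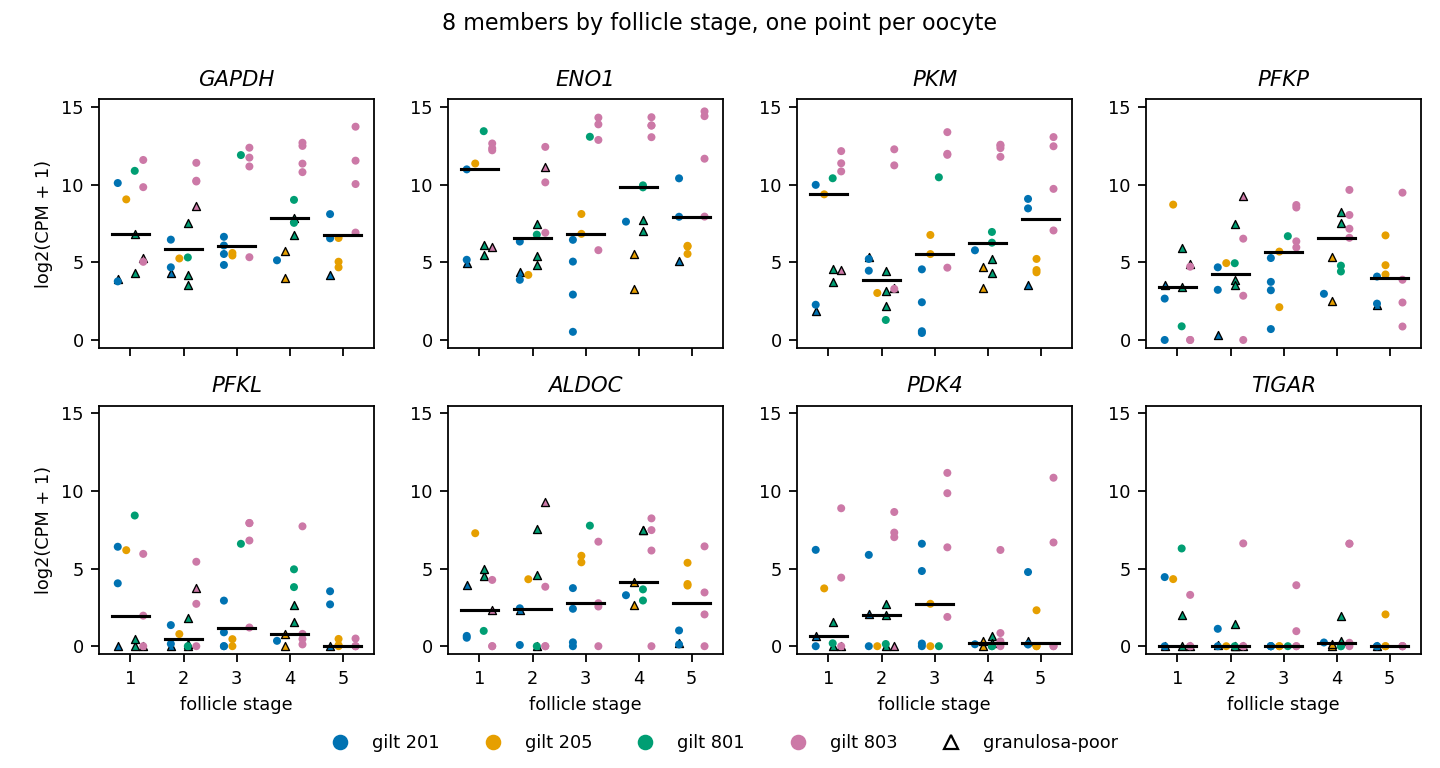
Levels of 8 members by follicle stage (x axis) as log2(CPM + 1) (y axis), with 1 point per oocyte coloured by gilt, triangles for granulosa-poor libraries and a black line at the stage median. The stages overlap in every panel, the 10 stage 5 values of PFKL end at 10.6 CPM, and gilt 803 holds most of the highest ENO1, PKM and GAPDH values.

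Isozyme shares were also followed over the stages, with the trend fitted within gilts and the stages permuted within gilts. PFKP's share of the phosphofructokinase counts was 41.7% ± 30.9 (SD, n = 4 gilts) in stage 1, 86% ± 11.5 in stage 2, 71.0% ± 19.8 in stage 3, 92.1% ± 6.13 in stage 4 and 82.2% ± 21.8 (n = 3) in stage 5. Its slope was 9.0 ± 3.43 percentage points per stage (SE; two-sided permutation p = 0.0133, adjusted over 6 families p = 0.0800). In the granulosa-poor libraries alone the slope was -6.09 (exact permutation p = 0.0556), and with the mean of single-oocyte shares it was 3.51 (permutation p = 0.219). PFKL made 53.6% ± 31.5 in stage 1 and 12.5% ± 21.5 in stage 5.

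For HK1's share of the hexokinase counts the slope was -9.09 ± 4.88 (two-sided permutation p = 0.0868, adjusted p = 0.260), from 88.2% ± 14.1 in stage 1 to 45.6% ± 36.0 in stage 5. The slopes of ALDOA (-3.60 ± 3.32, p = 0.259 by permutation), ENO1 (-0.07 ± 0.19, p = 0.788), LDHB (2.06 ± 2.34, p = 0.512) and PDK1 (1.80 ± 4.45, p = 0.694) were close to or under their standard errors. None of the 6 families passed the adjusted threshold.

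Beyond the members, 46 further genes of the same pathways were listed, of which 42 had a row and 36 could be tested; SLC16A1, BSG, MPC1 and PGK2 had no row under their symbol. None of the 36 passed an adjusted p of 0.05 in any of the 3 edgeR tests, and DESeq2 called 1 between stages 5 and 1: FBP2, a fructose bisphosphatase at 0 counts in 47 of 55 oocytes (adjusted p = 0.0239). At an unadjusted p under 0.05 there were 2 in the F test (PFKFB2 and SLC16A3), 3 lower at stage 5 than at stage 1 and 2 with a negative slope over stages, shares near those of all genes given above (5.37%, 5.37% and 5.76%). PFKFB2, which makes the activator of phosphofructokinase, had a log2 slope of -1.60 ± 0.51 per stage (SE; edgeR p = 0.00419, adjusted p = 0.437), but its highest oocyte had 9.15 CPM. The lactate exporter SLC16A3 had an F test p of 0.0279 (edgeR, adjusted p = 0.879). SLC16A7, a pyruvate carrier, had a log2 slope of -1.05 ± 0.47 per stage (p = 0.0346, adjusted p = 0.831), and LDHD (-8.73 ± 3.13), PFKFB2 (-6.88 ± 2.83) and GALM (-5.20 ± 2.26) were lower at stage 5 than at stage 1 at unadjusted p of 0.0100, 0.0223 and 0.0294. In granulosa-poor libraries MPC2, a subunit of the mitochondrial pyruvate carrier, had a median of 1.89 CPM, DLAT, the second enzyme of the pyruvate dehydrogenase complex, 6.61 CPM, and PFKFB3, which drives glycolysis in many cells, 0 CPM.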

How the data were processed

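The authors deposited a table of raw counts per Ensembl gene ID, 1 column per oocyte and not normalized, per the file headers. Upstream tools named in the submitters' processing notes are featureCounts, StringTie 1.2.2, HISAT2 2.1.0 and Trim Galore 0.4.3. For their roles, the genome build, the annotation, strand handling and reads with several matches: not given in the sources used here. Gene positions are therefore left out. No sequence tables were used. A further deposited table carries length-scaled values in another unit: it is named for TPM, but its column sums run from 40073.5 to 2990160, and 2382 genes of the count table are missing from it. It was used only to compare genes within an oocyte. Symbols came from the Ensembl pig list, which names 14857 of the 25880 rows.

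From the counts, CPM and nuclear CPM were computed with pandas 2.3.3. Counts were summed per gilt and stage (19 sums, since the gilt is the replicate) and tested in edgeR 4.0.16 (R 4.3.3) with TMM factors, filterByExpr, glmQLFit and glmQLFTest on stage and gilt, two-sided, with Benjamini-Hochberg adjustment; 11 residual degrees of freedom remained. Standard errors were taken as the size of the log2 change divided by the square root of its F statistic. DESeq2 1.42.0 was an alternative. The pairing comes from the animal: deviations of sums from their stage means had a mean correlation of -0.0014 in gilt 201, 0.217 in gilt 205, 0.145 in gilt 801 and 0.192 in gilt 803, against -0.042 between gilts. Whether oocytes of 1 gilt came from separate follicles is not stated in the labels. Share trends used 100000 permutations, or all where fewer exist. The edgeR and share scripts were tested on simulated data. No 2 libraries held identical counts. Limits for counts of 0 cover counting error only, since PCR copies are not independent molecules.

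The members, the lists and the granulosa-poor definition were chosen with earlier results of these data known. Stage values are given for the member with the highest granulosa-poor median in each step and for members with an unadjusted p under 0.05 in any edgeR test; the rest are given by median or range. ENO2, HK2, PFKM, LDHB, ALDOA, PDK2 and PDK3 are named under that rule by range. Alternatives were DESeq2, no count filter, mitochondrial genes left out, no gilt term, each gilt left out and granulosa-poor libraries alone; for shares, means of single-oocyte shares; for steps, other cutoffs. One listed gene outside the members is not reported here.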

Additional observations from a re-analysis of the deposited data

Results flagged for a closer look

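Values were checked for a sample far from the rest of its group in 52 groups: the CPM of the 29 measured members over the 10 stage 5 oocytes, and 23 sets of isozyme shares over the 4 gilts of a stage. A sample was singled out where its gap to the next, divided by the range, passed Dixon's 95% critical value. This happened in 25 groups; chance gives about 1 in 20 for values that follow a normal distribution, which CPM values do not.

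At stage 5 there were 18 such members, each with 1 oocyte above the other 9. The oocytes of gilt 803 held 14 of them. Oocyte 1 had the highest PFKP (719 CPM, next 106), ALDOA (23056, next 9248), GAPDH (13700.4, next 3004) and RPIA (2286, next 752). Oocyte 2 had the highest ALDOC (85.4, next 40.5), PGK1 (2367, next 807), PGAM1 (1012, next 519.5), PGLS (144, next 41.8) and PDK4 (1852, next 102). Oocyte 3 had the highest HK1 (124, next 51.6), ENO2 (33, next 0.469) and TALDO1 (54.7, next 28.5). Oocyte 4 had the highest HK2 (47.5, next 19.4) and PFKM (25.3, next 3.52). INHA in these 4 libraries was 3585, 3499.9, 320.4 and 175 CPM. Their summed oocyte markers (10 genes) were 712, 1200, 4857 and 13442 CPM. The median of that sum was 21959 CPM in the granulosa-poor libraries and 9610 CPM in all the others. Of the remaining stage 5 values, PFKL was highest in oocyte 3 of gilt 201 (10.6 CPM, next 5.48), LDHB (12.8, next 3.54) and PDHB (24.3, next 11.9) in oocyte 1 of gilt 201, and TIGAR in oocyte 3 of gilt 205 (3.14, next 0).

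Among the shares, ALDOA made 25.6% of the aldolase counts in gilt 205 at stage 3 (next 90.1%), ENO1 99.4% of the enolase counts in gilt 803 at stage 1 (next 99.96%) and 95.4% in gilt 205 at stage 4 (next 100%). LDHB made 5.02% of the lactate dehydrogenase counts in gilt 205 at stage 1 (next 0.478%), 11.2% in gilt 201 at stage 3 (next 0.148%) and 63.5% in gilt 201 at stage 4 (next 0.417%). PDK1 made 74.6% of the kinase counts in gilt 801 at stage 3 (next 9.83%).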

How the results depend on the processing

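Without a filter on low counts, 7 of 29 members were called in the edgeR F test among stages (PFKL, ALDOA, PGK1, ENO1, PKM, LDHA and PDK4; 216 of 23035 genes in all), against 0 of 28 with the filter; the cause was not tested. In the other alternatives of the 3 edgeR tests, DESeq2 included, 0 members were called, as also without the replicate block (0 in each test). Leaving out a gilt gave 0 calls of members in each test, with 1 (without gilt 801) to 11 (without gilt 803) members at an unadjusted p under 0.05 in the F test. DESeq2 called 47, 365 and 161 genes in all in the 3 tests, where edgeR called 0, 0 and 2. In the F test edgeR called 45 genes without gilt 803 and 14 in granulosa-poor libraries alone, and between stages 5 and 1 it called 23 without the filter. No share trend passed the adjusted threshold in any of 42 alternatives (smallest adjusted p 0.139). Slopes reversed for PFKP in granulosa-poor libraries alone (-6.09), for ALDOA with means of single-oocyte shares (0.284) and in granulosa-poor libraries alone (10.2), for ENO1 in the same settings (0.541 and 0.0141) and without gilt 205 (leave-one-out range -0.174 to 0.0848), for LDHB without gilt 201 (-0.417 to 3.26) and for PDK1 without gilt 201 (-3.74 to 4.44); the cause was not tested. Steps expressed in at least 50% of the granulosa-poor libraries numbered 17 of 20 with under 1 CPM of both markers (6 libraries), 15 with under 50 CPM (25 libraries), 14 with 5 CPM as expressed and 17 in nuclear CPM (14 libraries each). Members higher in the other libraries in every gilt numbered 8 to 11 over 3 settings chosen after seeing the data. The glucose transporter share was not run, since neither SLC2A1 nor SLC2A3 had a row.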

Other observations

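Some genes of the pathways outside the member list were higher in granulosa-poor libraries within each of the 4 gilts. Of the 17 with at least 3 counts in most of the oocytes, PDPR, the regulatory subunit that tunes pyruvate dehydrogenase phosphatase, PDP1, the phosphatase that switches the complex on, and BPGM, which makes 2,3-bisphosphoglycerate, were higher in all 4 gilts. Their median nuclear CPM were 43.3, 7.84 and 38 in granulosa-poor libraries and 2.99, 0.742 and 11.8 in the others. HIF1A, an oxygen-sensing transcription factor that drives glycolytic genes, and MPC2 were higher in the other libraries in all 4 gilts, with medians of 129 and 6.99 nuclear CPM in granulosa-poor libraries and 315 and 37.4 in the others. With granulosa-poor set at under 50 CPM, BPGM, PDP1 and HIF1A no longer had the pattern, and BPGM did not without the 3 libraries of fewer than 400000 counts. The shares of all genes with either pattern are those given for the members, and no test was made. The genes of this and the next paragraph were named after their values were seen.

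GPD1, which turns a glycolytic intermediate into glycerol 3-phosphate, was expressed in 14 of 14 granulosa-poor libraries, with a median of 242 nuclear CPM (17.7 to 605). It was expressed in 37 of 41 others with a median of 145. Within gilts GPD1 was higher in the granulosa-poor libraries in 2 of 4 and lower in 2. LDHC, the lactate dehydrogenase best known from the testis, was expressed in 10 of 14 granulosa-poor libraries, with a median of 64.3 nuclear CPM, and in 25 of 41 others with a median of 16.2. LDHC was higher in granulosa-poor libraries in 3 of 4 gilts. ADPGK, an ADP-dependent glucokinase, was expressed in 12 of 14 with a median of 157 nuclear CPM, and in 33 of 41 others with a median of 87.1. Within gilts, however, ADPGK was higher in the other libraries in 3 of 4. The glucose transporter SLC2A8 was expressed in 11 of 14 with a median of 54.9 nuclear CPM, and in 28 of 41 others with a median of 5.75. SLC2A8 was higher in the granulosa-poor libraries in 2 of 4 gilts and lower in 2.

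The authors' 2 tables did not agree on which oocytes lack a transcript. Of the oocytes with 0 counts, 14 were listed above 0 in the length-scaled table for PDK2, 10 for PFKM, 8 for PDHB, 7 for PDK3, 6 for ALDOC and 5 for TALDO1.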
